A study of Homo sapiens with 2 samples.

Results

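The genes of kynurenine breakdown, NAD supply and use, and the aryl hydrocarbon receptor (AHR) were examined in MDA-MB-231 cells, an established human line of triple-negative breast cancer. They were chosen by the platform annotation, as every probe set assigned to exactly 1 gene of a list of 38, and comprised 85 of the 54675 probe sets, with at least 1 probe set for each of the 38 genes. RNA was collected after transfection for 48 h with siRNA against KMO (siKMO) or with a control siRNA (siControl), and each condition was measured on 1 Affymetrix U133 Plus 2.0 array. There was thus no replicate, no test between conditions and no error for any difference, and each value below describes this pair of cultures. The array names carry the strings shK421 and shLUC, which are usual for short hairpin constructs, while the titles name siRNA, so the construct was not settled.

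Levels are log2 values after robust multi-array averaging (RMA), which corrects background, normalizes arrays together and gives 1 level a probe set. Differences are siKMO minus siControl on that scale, so that a difference of 1 is 2-fold. Each gene is represented by the probe set whose mean over the pair of arrays was highest. A gene or probe set is called measured if this mean reached 6. Of the 38 genes, 24 were measured, through 46 probe sets, and the other 14 lay under that level. Where 1 array lay under 6, the fold is given as a lower bound with 6 in place of the weaker level. A weak gene that passes through its stronger array alone had to differ, so the counts are descriptions. Among the members, IDO1, NAPRT and SIRT5 passed in this way, each through the siKMO array.

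Tryptophan is opened to kynurenine by the dioxygenases IDO1, IDO2 and TDO2 with the formamidase AFMID, and kynurenine is then cleaved, transaminated or hydroxylated. Hydroxylation by kynurenine 3-monooxygenase (KMO) leads through HAAO and QPRT to NAD, which most cells also rebuild from nicotinamide through NAMPT and the NMNAT enzymes. Sirtuins, PARP enzymes, CD38 and BST1 consume NAD and release nicotinamide. Kynurenine can also bind AHR, a receptor that enters the nucleus, pairs with ARNT and switches on CYP1A1, CYP1B1, TIPARP and its own repressor AHRR.

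The core of the DNA element bound by AHR with ARNT is GCGTG. The promoters of 3 classical AHR targets are shown because these genes are the transcriptional readout of the receptor. That of NAMPT is shown because it was lower at each of its 4 probe sets. This is not particular to NAMPT. Among members with several probe sets, it also held for NNMT, KYNU, NADK, SIRT3 and SIRT4. No promoter window was available for NNMT, IDO1 or CYP1B1. Each is the first RefSeq window listed for the gene in GRCh38.p14, from 250 bases before to 50 bases after the start, printed 5′ to 3′ on the gene's strand, with GCGTG or its reverse complement CACGC in capitals. The windows are chr15:74725479-74725778 (minus strand) for CYP1A1, chr5:321464-321763 (plus strand) for AHRR, chr3:156674340-156674639 (plus strand) for TIPARP and chr7:106284934-106285233 (minus strand) for NAMPT.
CYP1A1: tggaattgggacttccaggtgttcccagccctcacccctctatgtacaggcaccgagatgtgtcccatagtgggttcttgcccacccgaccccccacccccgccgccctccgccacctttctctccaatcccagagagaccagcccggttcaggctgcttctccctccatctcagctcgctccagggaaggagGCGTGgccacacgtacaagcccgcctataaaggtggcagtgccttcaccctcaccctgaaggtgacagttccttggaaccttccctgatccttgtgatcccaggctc
AHRR: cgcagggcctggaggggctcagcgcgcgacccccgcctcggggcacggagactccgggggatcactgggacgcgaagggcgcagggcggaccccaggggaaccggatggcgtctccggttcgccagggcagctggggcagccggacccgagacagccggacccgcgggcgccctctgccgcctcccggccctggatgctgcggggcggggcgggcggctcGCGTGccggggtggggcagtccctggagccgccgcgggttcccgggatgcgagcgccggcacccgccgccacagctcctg
TIPARP: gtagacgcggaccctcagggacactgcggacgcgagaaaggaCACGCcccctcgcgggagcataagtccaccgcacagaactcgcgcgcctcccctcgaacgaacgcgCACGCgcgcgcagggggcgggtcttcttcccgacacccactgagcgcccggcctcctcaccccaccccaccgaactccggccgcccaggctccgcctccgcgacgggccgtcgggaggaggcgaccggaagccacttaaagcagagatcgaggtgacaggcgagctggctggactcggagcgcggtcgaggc
NAMPT: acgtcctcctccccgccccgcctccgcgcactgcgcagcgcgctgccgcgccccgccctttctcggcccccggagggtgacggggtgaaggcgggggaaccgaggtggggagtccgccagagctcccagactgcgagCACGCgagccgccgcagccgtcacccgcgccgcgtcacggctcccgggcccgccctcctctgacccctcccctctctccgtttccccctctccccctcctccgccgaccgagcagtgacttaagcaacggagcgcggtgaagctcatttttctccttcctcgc
The core occurred 2 times in the TIPARP window and 1 time in each of the CYP1A1, AHRR and NAMPT windows. On either strand it was present in 12832 of 35116 RefSeq promoter windows of this length (36.5%), where a gene can have several windows. Among members, it was in the first window of 16 of the 30 that had one. The share of first windows over all genes was not computed, so these shares cannot be compared directly. A match is a description of the letters and not a bound site.

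The labelled line was checked on markers, and the epithelial ones went against it in part. Of 8 mesenchymal markers listed for MDA-MB-231, 7 were measured, 3 of them higher and 4 lower in siKMO cells. SNAI2 was the 1 past 1.5-fold, at 8.47 in siKMO and 7.78 in siControl, 1.62-fold higher. Of all measured genes, 5.19% were at least 1.5-fold higher. The mean level over all 8 was 9.84 in siKMO and 9.96 in siControl. That mean includes SPARC, which was under 6 (2.82 in siKMO, 3.96 in siControl). Of 10 epithelial markers known to be low in this line, 7 were measured, which is not the usual profile of MDA-MB-231. E-cadherin (CDH1) stood at 8.62 in siKMO and 10.54 in siControl, EPCAM at 7.85 in siKMO and 8.75 in siControl, and KRT19 at 10.51 in siKMO and 10.92 in siControl. CLDN4 stood at 8.13 in siKMO and 8.67 in siControl, CLDN7 at 7.33 in siKMO and 8.44 in siControl, ELF3 at 6.74 in siKMO and 7.15 in siControl, and ERBB3 at 5.61 in siKMO and 6.73 in siControl. GRHL2, ESRP1 and RAB25 were under 6 in both.

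All 7 measured epithelial markers were lower in siKMO cells at their strongest probe set, against 44.1% of all measured genes. ELF3 was higher at another measured probe set (6.80 in siKMO, 6.62 in siControl). ERBB3 entered the measured genes through the siControl array alone, so it had to be lower. With levels under 6 set to 6, 2 of the 7 were at least 2-fold lower. Without that setting, 1.39% of all measured genes were. The mean over all 10 epithelial markers, GRHL2, ESRP1 and RAB25 included, was 6.44 in siKMO and 7.09 in siControl. Their part in the differences of IDO1, NNMT and NAMPT described below was not tested. Of the receptors whose absence or low level defines triple-negative cells, ESR1 and PGR were under 6, and ERBB2 stood at 7.37 in siKMO and 7.44 in siControl.

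The targeted gene had no usable signal. KMO stood at 2.92, 2.51 and 2.35 in the siKMO array, against 2.95, 2.37 and 2.11 in the siControl array, at its 3 probe sets. The 29 probe sets of 16 genes of unrelated tissues, such as liver and lens, ran from 1.58 to 5.39 over both arrays, so KMO lay inside the background range in both. Its values therefore do not check the labels.

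Of the 24 measured genes, 1 was at least 2-fold higher in siKMO cells (IDO1) and 1 at least 2-fold lower (NNMT), against 0.856% and 1.39% of all 8997 measured genes. At 1.5-fold, IDO1 was the only one higher, against 5.19% of measured genes, and NMNAT2 and NNMT were lower, against 5.41%. In direction, 8 were higher, 14 lower and 2 had the same value on both arrays, whereas 54.8% of all measured genes were higher and 44.1% lower. The 8 include IDO1, NAPRT and SIRT5, which entered the measured genes through the siKMO array alone. The median difference was -0.18, beside 0.04 over all measured genes, whose middle 95% ran from -0.82 to 0.74. Over the 46 measured probe sets, 1 was higher and 5 were lower at 1.5-fold, against 5.2% and 5.04% of all measured probe sets. At 2-fold, 1 was higher and 3 were lower, against 0.842% and 1.21%; 2 of those 3 belong to NNMT and 1 to NAMPT. Nearest the 1.5-fold limit of 0.58 were NMNAT2 outside it at -0.65 and NAMPT inside it at -0.57. Among measured genes with 2 or more measured probe sets, all probe sets pointed one way in 8 of 12, against 72.5% of all such genes.

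**Figure D1:**
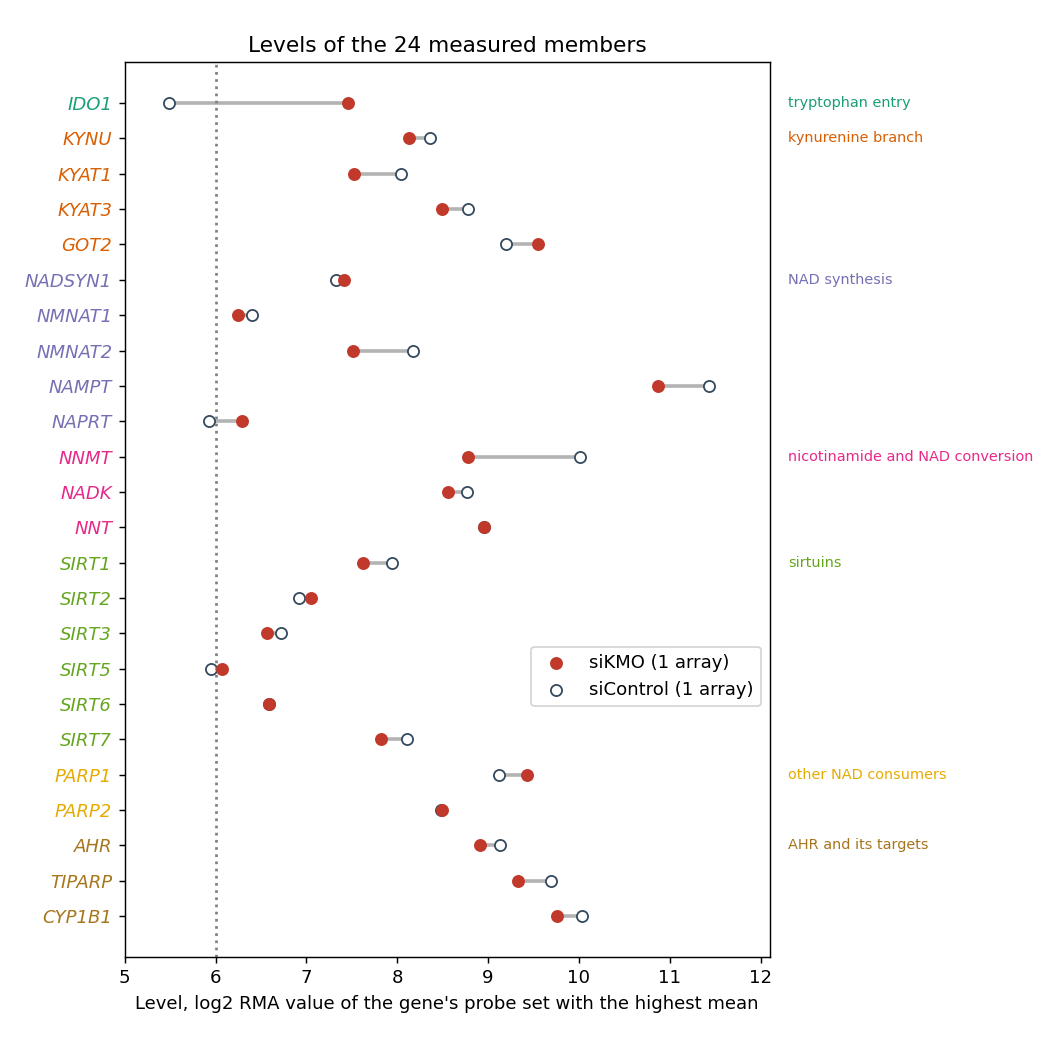
Level of each of the 24 measured genes on the log2 RMA scale (x axis) in the siKMO array (filled) and the siControl array (open), by role, with the level of 6 dotted. The gap is widest for IDO1 (7.46 in siKMO, 5.48 in siControl) and next widest for NNMT (8.78 in siKMO, 10.01 in siControl).

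IDO1, the dioxygenase that interferon-gamma induces in many cells, was the member with the largest difference. Its single probe set (210029_at) stood at 7.46 in siKMO cells, against 5.48 in siControl cells, at least 2.75-fold higher. It entered the measured genes through the siKMO array alone, so its place among them is not given. No second probe set of IDO1 was there to check it. The related IDO2 stood at 2.18 in siKMO cells and 2.30 in siControl cells. TDO2, the dioxygenase known from liver, stood at 2.45 and 2.21 in siKMO cells, against 2.92 and 1.76 in siControl cells, so its 2 probe sets differed in opposite directions. Both of these enzymes were within the background range, and IDO1 was the single gene of tryptophan entry with a level over 6 in either array.

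A list of 15 genes of the interferon-gamma route or of IDO1 control held 14 with a probe set. All 7 measured ones were lower in siKMO cells at their strongest probe set, with differences from -0.67 to -0.03. Of these, 1 was at least 1.5-fold lower. Among all measured genes, 44.1% were lower and 5.41% at least 1.5-fold lower. SOCS3, a feedback inhibitor of cytokine receptors, stood at 7.34 and 6.07 in siKMO cells, against 8.01 and 6.38 in siControl cells. It was 1.59- and 1.24-fold lower, so its place past 1.5-fold rests on 1 probe set. IFNGR2, a chain of the interferon-gamma receptor, differed by -0.37. IRF1, a transcription factor that drives IDO1, differed by -0.34 and -0.14 at its measured probe sets. Among genes outside the rule for naming, chosen after their values were seen, GBP1, an interferon-induced GTPase, differed by -0.03, 0.08 and 0.04 at its 3 measured probe sets. CXCL11, an interferon-induced chemokine, stood at 4.60 in siKMO cells and 3.38 in siControl cells, under the level of 6 in both.

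Past the first step, 4 enzymes that handle kynurenine were measured, 3 of them lower and 1 higher in siKMO cells, with 0 past 1.5-fold. At 1.5-fold, 5.19% of all measured genes were higher and 5.41% lower, so 0 of 4 is near those shares. KYNU, kynureninase, which cleaves kynurenine and 3-hydroxykynurenine, stood at 8.13, 7.50 and 6.93 in siKMO cells, against 8.36, 7.62 and 7.04 in siControl cells, with differences of -0.23 to -0.11. KYAT1, an aminotransferase that makes kynurenic acid, stood at 7.53 in siKMO cells and 8.04 in siControl cells, a 1.43-fold lower level at its measured probe set. Its other probe sets, at 4.34 and 2.61 in siKMO cells and 4.26 and 2.68 in siControl cells, were too weak to check this. KYAT3, the related aminotransferase, stood at 8.49 in siKMO cells and 8.78 in siControl cells.

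GOT2, the mitochondrial aspartate aminotransferase that also accepts kynurenine, went the other way. It stood at 9.55 in siKMO cells and 9.20 in siControl cells, a 1.28-fold higher level. The third kynurenine aminotransferase, AADAT, stood at 5.27 in siKMO cells and 5.05 in siControl cells. The 4 measured genes of this branch had a median difference of -0.26.

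Between kynurenine and NAD, KYNU and NADSYN1 were measured, while KMO, HAAO, QPRT and ACMSD were under the level of 6. HAAO, which opens the ring of 3-hydroxyanthranilate, stood at 5.57 in siKMO cells and 5.52 in siControl cells. QPRT, which makes the nicotinic acid mononucleotide, stood at 4.74 on both arrays at its stronger probe set. ACMSD, which diverts the intermediate away from NAD, stood at 1.94 in siKMO cells and 2.02 in siControl cells, and AFMID at 4.92 in siKMO cells and 4.70 in siControl cells. With KMO under 3 on both arrays, 0 of the 4 enzymes KMO, HAAO, ACMSD and QPRT had a measured probe set.

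In NAD rebuilding from nicotinamide, 1 of the measured enzymes, NMNAT2, was counted at 1.5-fold lower. NAMPT, the rate-limiting enzyme of nicotinamide salvage, stood at 10.87, 10.33, 9.34 and 8.56 in siKMO cells, against 11.43, 10.90, 10.09 and 9.65 in siControl cells. Each siKMO value was below its siControl value, by 1.48-, 1.49-, 1.68- and 2.12-fold. The probe set that decides the gene's value had the smallest of these differences (-0.57), so NAMPT was not counted at 1.5-fold, although the median over its probe sets was -0.66.

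NMNAT2, the cytosolic enzyme of this step, known for axon maintenance, stood at 7.52, 7.03 and 6.26 in siKMO cells, against 8.17, 7.28 and 6.77 in siControl cells. The siKMO array was lower at all 3, by 1.57-, 1.19- and 1.42-fold, so its place past 1.5-fold rests on 1 probe set. NMNAT1, the nuclear enzyme, stood at 6.25 and 6.01 in siKMO cells, against 6.41 and 6.01 in siControl cells. NMNAT3, the mitochondrial enzyme, was under the level of 6, at 5.29 in siKMO cells and 5.47 in siControl cells.

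NAPRT and NADSYN1, of the nicotinic acid routes, were not lower at their measured probe sets. NAPRT, which starts NAD synthesis from nicotinic acid, stood at 6.29 in siKMO cells and 5.93 in siControl cells, at least 1.22-fold higher. It entered the measured genes through the siKMO array alone. Its weaker probe set, under 6, stood at 3.44 in siKMO cells and 3.56 in siControl cells. NADSYN1, the synthetase that completes both the nicotinic acid and the tryptophan routes, stood at 7.42 and 6.60 in siKMO cells, against 7.32 and 6.59 in siControl cells.

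**Figure D2:**
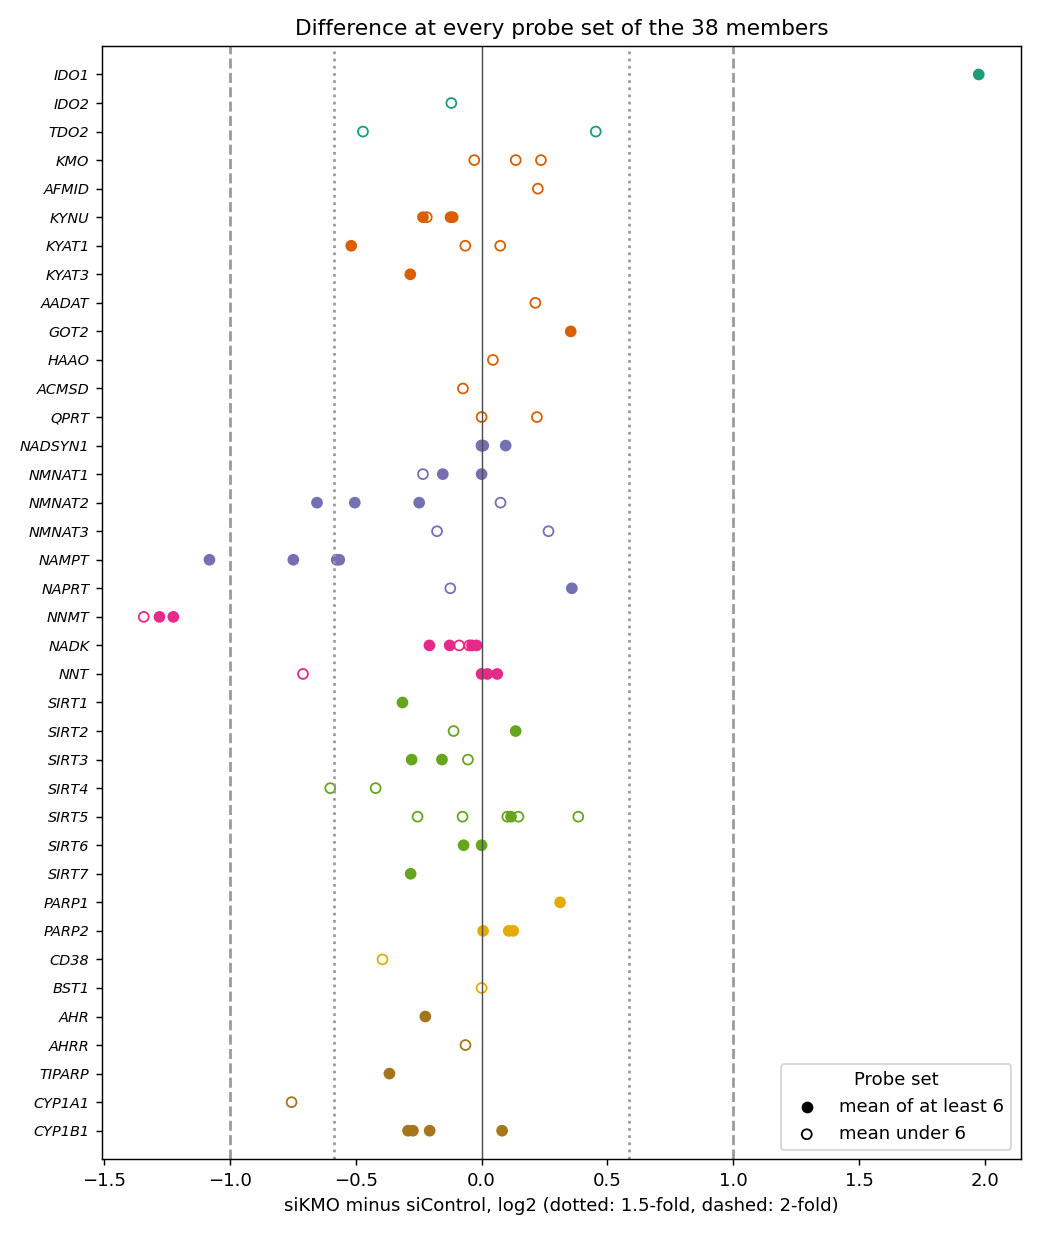
Difference between siKMO and siControl (x axis, log2) at each of the 85 probe sets of the 38 genes, filled where the mean level was at least 6 and open where it was under 6. All 3 NNMT probe sets lie between -1.34 and -1.22 and all 4 of NAMPT between -1.08 and -0.57, while IDO1 has 1 probe set, drawn at its deposited 1.97 (at least 1.46 with its siControl level set to 6).

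NNMT was the member with the largest lower difference. It encodes nicotinamide N-methyltransferase, which methylates nicotinamide with the methyl group of S-adenosylmethionine and so removes it from salvage. The probe sets 202237_at and 202238_s_at stood at 8.78 and 8.37 in siKMO cells, against 10.01 and 9.65 in siControl cells. These levels were 2.34- and 2.43-fold lower in siKMO cells. The third probe set, with a mean under 6, stood at 4.29 in siKMO cells and 5.63 in siControl cells and pointed the same way.

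By its difference NNMT was 54th from the lowest of the 8997 measured genes, and 45th with levels under 6 set to 6. Both of its measured probe sets were at least 1.5-fold lower, which held for 2.46% of the 3777 genes with 2 or more measured probe sets. NADK, the cytosolic kinase that turns NAD into NADP, differed by -0.21 to -0.02 over 4 measured probe sets. NNT, the mitochondrial transhydrogenase that makes NADPH at the cost of NADH, stood at 8.95, 8.23 and 6.48 in siKMO cells, against 8.95, 8.20 and 6.42 in siControl cells. A weaker NNT probe set, at 4.80 in siKMO cells and 5.51 in siControl cells, was the exception.

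Genes next to these pathways gave a mixed picture for NAD supply. Among 13 further genes, 10 were measured, of which 3 were at least 1.5-fold lower and 0 higher, with a median of 0.09. The shares of all measured genes were 5.41% lower and 5.19% higher at 1.5-fold. SLC12A8, a carrier reported in mouse to take up nicotinamide mononucleotide, stood at 6.33 in siKMO cells and 7.52 in siControl cells, a 2.28-fold lower level. NMRK1, the kinase that makes that mononucleotide from nicotinamide riboside, stood at 6.21 in siKMO cells and 7.29 in siControl cells, a 2.11-fold lower level. NUDT12, a hydrolase of NADH in peroxisomes and cytosol, was 1.64-fold lower at 6.49 in siKMO cells and 7.20 in siControl cells. Each of these 3 rests on 1 measured probe set.

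NADK2, the mitochondrial NAD kinase, was named after its values were seen. It stood at 7.95, 7.87 and 7.72 in siKMO cells, against 7.40, 7.30 and 7.01 in siControl cells, and was higher by 1.46-, 1.48- and 1.64-fold. The mitochondrial and cytosolic NAD kinases thus differed in opposite directions, with NADK lower by at most 1.15-fold.

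**Figure D3:**
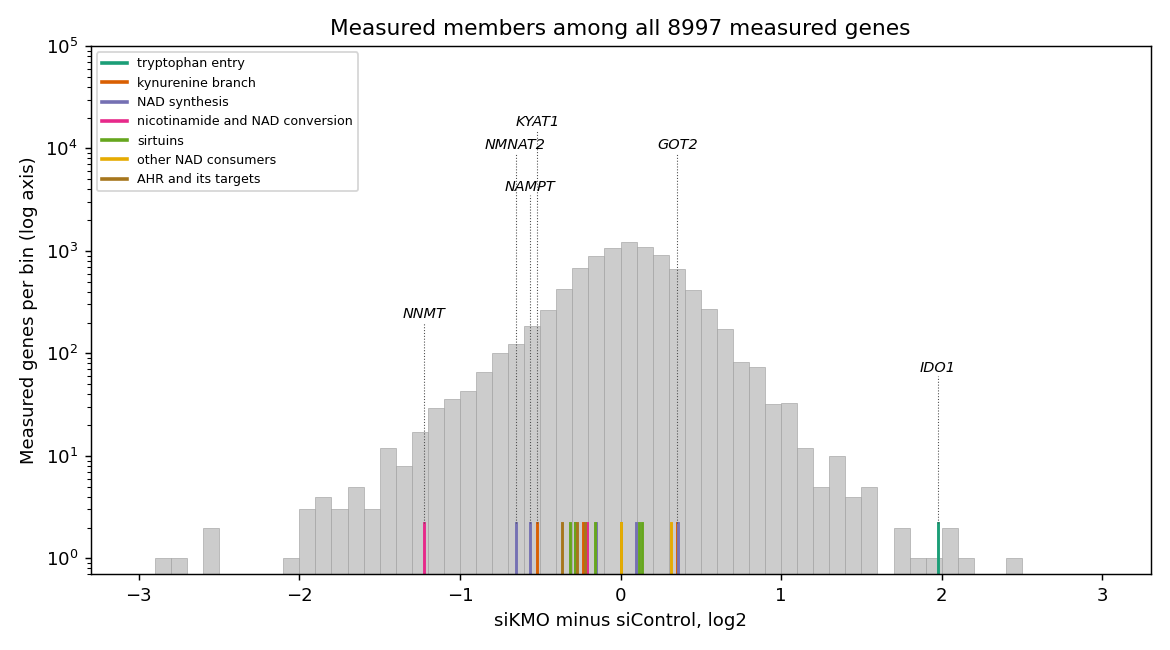
Number of measured genes (y axis, log scale) by difference between siKMO and siControl (x axis, log2) for all 8997 measured genes, with a coloured tick for each of the 24 measured genes of the pathways. NNMT lies at -1.22 and the ticks other than NNMT and IDO1 lie between -0.65 and 0.36; IDO1 is drawn at its deposited 1.97, of which at least 1.46 is left with its siControl level set to 6.

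The sirtuins are NAD-dependent deacylases. Of 7, 6 were measured, 2 were higher, 3 lower and 1 equal, with 0 past 1.5-fold and a median of -0.08. Among all measured genes, 5.19% were higher and 5.41% lower at 1.5-fold, so 0 of 6 is near those shares. SIRT1, the nuclear deacetylase, stood at 7.62 in siKMO cells and 7.94 in siControl cells, and SIRT7, of the nucleolus, at 7.82 in siKMO cells and 8.10 in siControl cells. SIRT3, the main mitochondrial deacetylase, stood at 6.56 and 6.19 in siKMO cells, against 6.72 and 6.47 in siControl cells. SIRT2, mostly cytosolic, differed by 0.14, SIRT6 by 0 and -0.07, and SIRT5, the mitochondrial desuccinylase, by 0.12 with its siControl level under 6. SIRT4, also mitochondrial, was not measured, at 3.40 and 3.23 in siKMO cells and 4.00 and 3.65 in siControl cells.

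Among the other consumers, PARP1, the main DNA-damage polymerase of ADP-ribose, stood at 9.43 in siKMO cells and 9.12 in siControl cells, a 1.24-fold higher level. PARP2, its relative, differed by 0.01, 0.11 and 0.13 over 3 probe sets. The surface hydrolases CD38 and BST1 were under the level of 6, CD38 at 4.38 in siKMO cells and 4.77 in siControl cells and BST1 at 3.13 on both arrays. Of 19 further genes of ADP-ribose transfer and removal, 15 were measured, with a median of -0.003. With levels under 6 set to 6, 2 were at least 1.5-fold higher and 0 lower. Without that setting, the shares of all measured genes were 5.19% and 5.41%. PARP8 was at least 1.67-fold higher (6.74 in siKMO, 5.92 in siControl), and the tankyrase TNKS2 differed by 0.64 and 0.07 at its measured probe sets. MACROD1, which removes ADP-ribose, was at least 1.40-fold lower (5.77 in siKMO, 6.49 in siControl). PARP8 entered the measured genes through the siKMO array alone and MACROD1 through the siControl array alone, so each had to differ in its direction.

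AHR and its measured targets were lower by less than 1.5-fold. AHR stood at 8.91 in siKMO cells and 9.13 in siControl cells. TIPARP, a mono-ADP-ribosyltransferase that restrains AHR, stood at 9.33 in siKMO cells and 9.70 in siControl cells, a 1.29-fold lower level. CYP1B1, an oxidase of polycyclic compounds and oestrogens, stood at 9.76, 9.72, 9.46 and 6.25 in siKMO cells, against 10.03, 10.01, 9.66 and 6.16 in siControl cells. It was thus lower at its 3 stronger probe sets and higher by 0.08 at the weakest.

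CYP1A1, the classical AHR target, was not measured. It stood at 4.43 in siKMO cells and 5.18 in siControl cells, both inside the background range, and no fold is given. AHRR stood at 5.04 in siKMO cells and 5.11 in siControl cells. The measured targets TIPARP and CYP1B1 differed by -0.37 and -0.27, while CYP1A1 and AHRR gave no level to compare.

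Of 6 AHR partners listed, 5 were measured, with 0 past 1.5-fold. ARNT differed by -0.20, ARNT2 by -0.15 and the chaperone HSP90AA1 by 0.20. Over all measured genes, 5.19% were higher and 5.41% lower at 1.5-fold, so 0 of 5 is near those shares. Of 10 further reported AHR targets 4 were measured, of which 1 was higher and 0 lower at 1.5-fold with levels under 6 set to 6. Without that setting, 5.19% of all measured genes were higher and 5.41% lower at 1.5-fold. EREG, a ligand of the EGF receptor, was at least 3.40-fold higher (7.77 in siKMO, 5.94 in siControl). SOCS2, a cytokine feedback inhibitor, was at least 1.27-fold lower (5.67 in siKMO, 6.34 in siControl). EREG entered the measured genes through the siKMO array alone and SOCS2 through the siControl array alone. Each thus had to differ in its direction, and the count is a description. NFE2L2, the transcription factor of the oxidant response, differed by -0.19 at its strongest probe set and by 0.14 at another measured one. In tryptophan uptake and charging, 0 of 6 measured genes were past 1.5-fold, which is near the shares of all measured genes. WARS2 differed by 0.30, the tryptophanyl-tRNA synthetase WARS1 by 0.28 and the transporter SLC7A5 by 0.24.

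**Figure D4:**
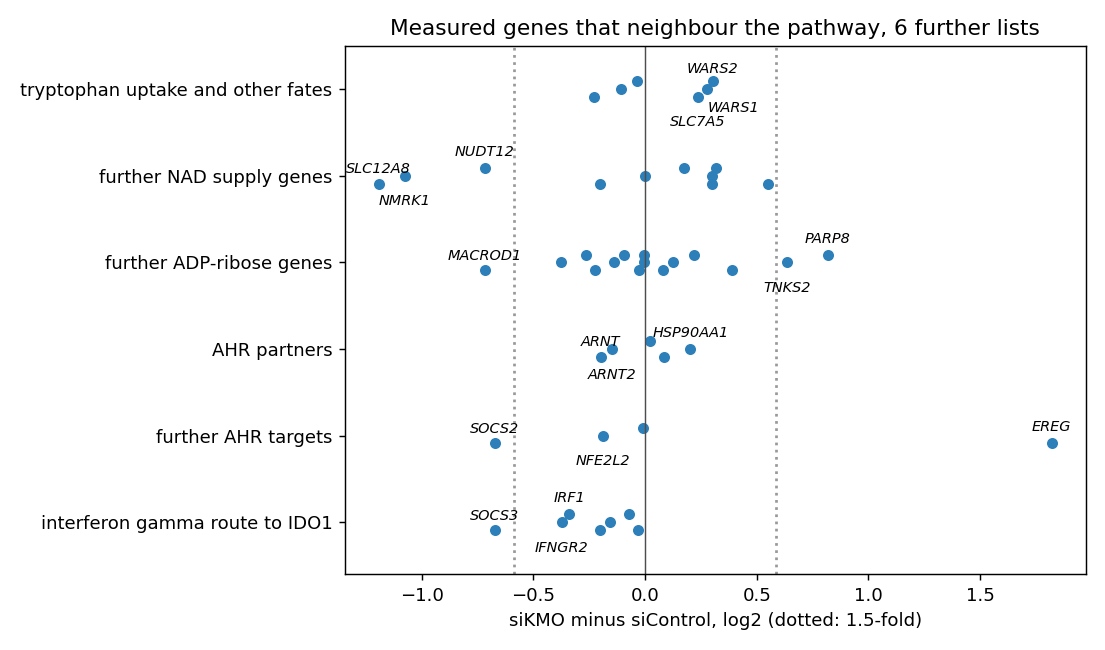
Difference between siKMO and siControl (x axis, log2) of the measured genes of 6 further lists (y axis), each at its strongest probe set, with the 3 of largest size named. The NAD supply list reaches -1.19 for SLC12A8 and -1.07 for NMRK1, and all 7 points of the interferon-gamma list lie below 0.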

How the data were processed

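Per the labels, the deposited values are log2 levels that the authors computed by RMA. Affymetrix Expression Console is the tool in the submitters' processing notes; the sources used here give neither its version nor which arrays were normalized jointly. Gene names came from the platform annotation, and symbols were brought up to date through gene identifiers in RefSeq (GRCh38.p14). Of 54675 probe sets, 41097 carried 1 gene, 1801 several, and 11777 were not named.

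Differences, counts at 1.5- and 2-fold and medians were computed with Python 3.11.15 and pandas 2.3.3, and the calculation was tested on simulated data. No p-value was computed, since each group has 1 array, which limits the precision. The sorted values of both arrays differed by at most 0.064, so a change common to all transcripts is not visible. Of the 85 member probe sets, 7 had the same value on both arrays. The members, lists and the rule for named genes (all members, the 3 largest absolute differences among measured genes of each further list, and all markers) were chosen with earlier results of these data known. Alternatives were a minimum of 7 or none, levels under 6 set to 6, other summaries of probe sets, no _x_at or _s_at probe sets, and median-centring.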

Additional observations from a re-analysis of the deposited data

How the results depend on the processing

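No paired analysis was possible because each group has 1 array. The count of 1.5-fold higher genes was 0 at a minimum level of 7, as was the count of 2-fold higher genes, since the mean of IDO1 over both arrays was below it. IDO1 was otherwise the single higher gene under every alternative. Without a minimum level the count of 1.5-fold lower genes was 4 among all 38, in place of 2, with SIRT4 and CYP1A1 added. Both of these lay inside the background range on both arrays. The share of all genes was not computed for the alternatives, so these counts are descriptions. NNMT was past 1.5-fold lower under all 7 alternatives. NMNAT2 was replaced by NAMPT when probe sets of a gene were averaged (NAMPT -0.74, NMNAT2 -0.33) or when the median over measured probe sets was taken (NAMPT -0.66, NMNAT2 -0.50), and both were counted after the median difference was subtracted, which gave 3 lower genes. The median of the measured members ran from -0.27 to -0.10. The KMO difference was 0.11 with the mean of its 3 probe sets and -0.03 with the strongest, both at background. 0 of the member differences past 1.5-fold changed sign. Signal over background limits KMO, TDO2, QPRT and CYP1A1. HAAO lay just above the background range on both arrays but under the level of 6.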
